A study of Xenopus laevis with 6 samples.

Results

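Intergenic long non-coding RNA (lncRNA) transcripts were described in the testis of the African clawed frog Xenopus laevis. They are the transcripts whose deposited relationship to other genes reads intergenic, that is, lying between annotated genes. They numbered 2577 of the 3559 different transcripts in the lncRNA table (72.4%), and the classes that overlap or oppose a gene held 980. The atrazine group had been exposed to 100 µg/L atrazine, a triazine herbicide, for 180 days. The control group had received none. Both groups held 3 libraries of testis, with a stated stage of postnatal day 193, given as 13 + 180 days. The labels name no strain and no number of animals per library, so p-values measure only the spread between these libraries, which may be technical.

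An lncRNA is a transcript without a recognised protein-coding reading frame, conventionally longer than 200 bases, and an intergenic one has a promoter and exons of its own. Some act on chromatin or on genes nearby, others act in the cytoplasm, and many have no known role. Testis, with its spermatogenic cells and their open chromatin, is known in vertebrates for a large repertoire of such transcripts, mostly at low levels. Xenopus laevis is allotetraploid, and most genes were inherited as a pair, with copies on the long (L) and short (S) chromosome of each homeologous pair.

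The RNA was total RNA depleted of rRNA and sequenced from stranded libraries. Values are FPKM, fragments scaled by transcript length and library size. The quantifier is not given, and short transcripts stood far higher per read than their listed length accounts for. In atrazine replicate 1, LOC108707692 (137 bases) was at 291 FPKM from 29 reads, and LOC108708564 (449 bases) was at 1276 FPKM from 5324 reads. Levels and ranks of short transcripts are therefore not comparable with those of longer ones. The reads behind the mRNA table were estimated at 7360619 in atrazine replicate 3 and at 13784631 to 17018687 in the other libraries. The intergenic transcripts took 51851 reads in atrazine replicate 3 and 95886 to 122687 elsewhere, so low values are least precise in that library. Correlations of log2(FPKM + 1) between libraries over the 965 tested intergenic transcripts were 0.869 to 0.919 within a group and 0.837 to 0.916 between groups. Marker rows of germ cells, Sertoli cells and Leydig cells were above 0 in these libraries. In bulk tissue, fewer cells of a type and less RNA per cell cannot be told apart.

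The intergenic transcripts belonged to 2179 genes, of which 1965 had 1 such transcript and 214 had more. LOC108704672 had the most, 17. The strands were almost evenly used, with 1305 transcripts on the plus strand and 1272 on the minus strand. The L chromosomes carried 1170 of them and the S chromosomes 909, so that 56.3% of the placed transcripts were on L, against 58.6% of placed mRNA rows. By chromosome the number ran from 78 on 7S to 159 on 8L. The other 498 (19.3%) lay on sequences with no chromosome, where 8.69% of mRNA rows lay.

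Transcripts were 851 bases long at the median, with quartiles of 497 and 1501 bases and a range of 50 to 15623. The other lncRNA classes had a median of 897 bases. Only 6 intergenic transcripts were as long as their locus, which left introns or shared loci in nearly all of them. Another 138 were listed at under 200 bases, and 28 of those were detected, which here means at least 0.5 FPKM in at least 3 libraries. The name lncRNA therefore covers some transcripts shorter than its usual definition.

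Most intergenic lncRNAs were scarce. The median of their mean FPKM over the 6 libraries was 0.246, against 0.442 in the other lncRNA classes and 4.43 in the mRNA table. The lncRNA rows are single transcripts while mRNA rows are listed by gene. Levels, detection and spread are therefore compared with mRNA across unlike units, here and below. In all, 249 were listed at 0 in every library, 1592 had a mean under 0.5 FPKM, 699 reached 1, 149 reached 10 and 18 reached 100. Detection was met by 965 of them (37.4%), against 47.4% of the other classes and 75.4% of mRNA rows. The 125 that met it in exactly 3 libraries had a median of 0.578 FPKM and the 164 that missed it by 1 library had 0.405.

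At the 0.5 FPKM cut, detection was alike in the libraries. Between 926 (control replicate 1) and 954 (control replicate 2) intergenic lncRNAs were at 0.5 FPKM or more in a library, and 594 were so in all 6. A further 1198 reached this level in none. At lower levels atrazine replicate 3, the shallowest library, fell behind. It had 891 transcripts at 0, against 636 to 715 in the other libraries. At 0.1 FPKM or more it had 1372, against 1468 to 1514. Among the 125 detected in exactly 3 libraries, 7 were detected in the 3 atrazine libraries and 10 in the 3 control libraries. These met the detection rule only through the group where they were high. The share over all lncRNAs was not counted, so nothing is read from these numbers. A detected transcript rested on a median of 18.5 reads per library, and its coefficient of variation (CV, the SD as a percent of the mean) over the 6 libraries had a median of 38.8%, against 17.3% for detected mRNA rows.

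**Figure D1:**
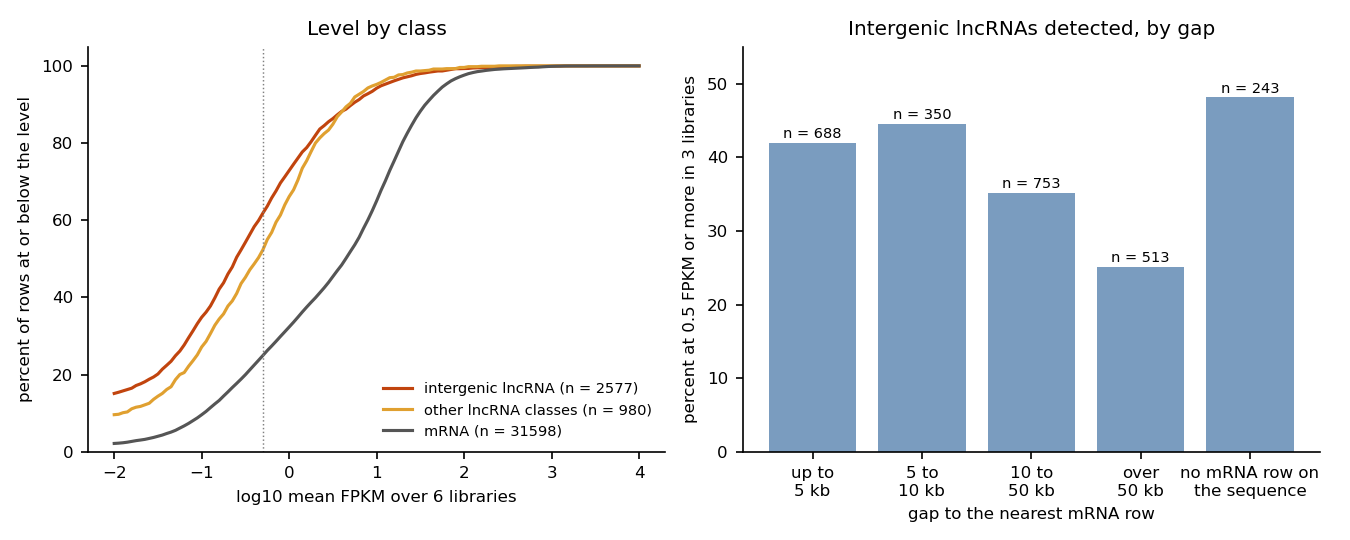
Left, percent of rows (y) at or below a level (x, log10 of the mean FPKM over 6 libraries) for 2577 intergenic lncRNAs, 980 other lncRNAs and 31598 mRNA rows, with a dotted line at 0.5 FPKM. Right, percent of intergenic lncRNAs detected, by the gap to the nearest mRNA row, from 25.1% beyond 50 kb to 48.1% on sequences with no mRNA row.

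A few transcripts held most of the summed FPKM. The 2 most abundant carried 20.4% of the FPKM summed over all intergenic lncRNAs, the first 8 carried 37.6% and the first 50 carried 66.0%. In estimated reads the first 8 held less, 23.7%, and 6 of the first 50 were under 200 bases. Of those 50, 26 lay on L chromosomes, 12 on S chromosomes and 12 on unplaced sequences. Levels of these 50 were steadier than of the detected set, with a median CV of 22.0%.

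The 2 leading transcripts were an L and S pair by position. LOC108708564, 449 bases long, lies on 2L (bases 138621487 to 138624537, minus strand) and was at 1276, 1249 and 1143 FPKM with atrazine and 1328, 1349 and 1210 in the controls. LOC108709832, 461 bases long, lies on 2S (bases 120205225 to 120208332, minus strand) and was at 1163, 1206 and 935 FPKM with atrazine and 1168, 1078 and 1009 in the controls. The groups overlapped for both, and their CVs were 6.07% and 9.64%. Each lies upstream, on the same strand, of a zc3h10 row, a gene for a CCCH-type zinc finger protein, at gaps of 8783 and 5243 bases. The zc3h10 rows themselves were at 12.1 FPKM (LOC100036797, named zc3h10.L in assembly v10.1) and 18.4 FPKM (zc3h10.S), so the lncRNAs stood far above the mRNAs beside them.

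LOC108705922 (1127 bases, unplaced) and LOC108701478 (473 bases, 9_10L) came next, with means of 480 and 398 FPKM and overlapping groups. LOC108707692 reached 347 FPKM from only 26 to 35 reads per library, at a listed length of 137 bases. LOC108699856 (820 bases, 8S) was at 253, 105 and 235 FPKM with atrazine and at 167, 463 and 232 in the controls, and its groups overlapped.

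The other 2 of the first 8 flank sp4-c, a gene for a basic nuclear protein of the kind that replaces histones in frog sperm. LOC108704350 (514 bases) lies 2880 bases upstream of sp4-c on the same strand of an unplaced sequence, and LOC108704372 (520 bases) lies on its other side. LOC108704350 was at 201, 122 and 233 FPKM with atrazine and at 279, 390 and 193 in the controls. LOC108704372 was at 310, 118 and 379 FPKM with atrazine and at 222, 422 and 262 in the controls. Both sets of groups overlapped, and both transcripts were lowest in atrazine replicate 2 and highest in control replicate 2.

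The mRNA between them had a larger fold change than either lncRNA. It stood at 290, 335 and 362 FPKM with atrazine and at 713, 1207 and 856 in the controls, with no overlap. Its log2 fold change (atrazine over control, of FPKM + 1, as for every fold change here) was -1.46 ± 0.19 (SE), with an adjusted p of 0.406 by limma over the mRNA table, which did not pass. The log2 fold change of LOC108704350 was -0.62 ± 0.33 (adjusted p = 0.784), and it was -0.35 without atrazine replicate 2 and -0.38 without control replicate 2. That of LOC108704372 was -0.27 ± 0.46 (adjusted p = 0.930), and its sign turned to 0.24 without atrazine replicate 2. The 7 spermatid and sperm markers, sp4-c among them, summed to 654 to 856 FPKM with atrazine and 1145 to 1965 in the controls, with 7 of 8 rows lower and none at 0 in all libraries. Without sp4-c the other 7 rows summed to 319 to 504 FPKM with atrazine and 432 to 757 in the controls, and the groups overlapped. Their part in these values was not tested.

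**Figure D2:**
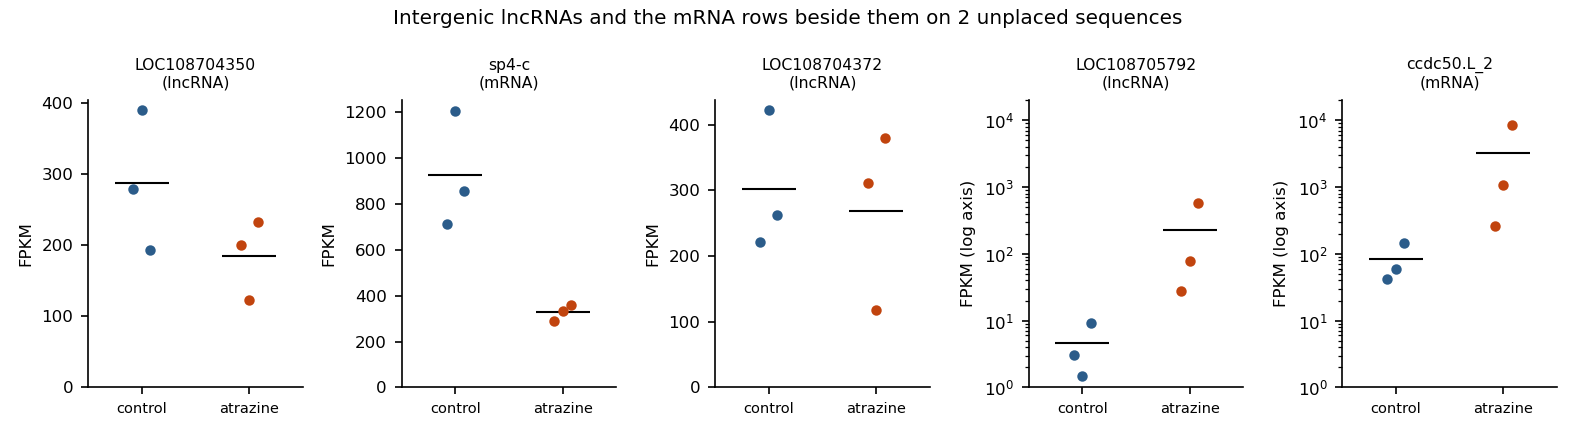
FPKM (y) in 3 control and 3 atrazine libraries for 2 intergenic lncRNAs and the sp4-c mRNA between them, and for LOC108705792 and the ccdc50.L_2 mRNA row beside it on a log axis. Points are libraries and lines are group means. The sp4-c points do not overlap between groups, while those of the flanking lncRNAs do.

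Nearly all intergenic lncRNAs carry only a LOC number, and 9 have a symbol, of which 6 were detected. The transcript of tuba1c.L, an alpha-tubulin gene, was the most abundant of them, at 51.3, 35.8 and 51.7 FPKM with atrazine and 62.0, 107 and 62.6 in the controls, with no overlap. Its log2 fold change was -0.70 ± 0.27 (adjusted p = 0.692), and -0.44 without control replicate 2. The transcript of nupl2.L, a nucleoporin-related gene, was steady, at 15.6 to 17.7 FPKM with atrazine and 15.0 to 16.5 in the controls. The serinc2.L transcript, from a gene of serine incorporators, was at 10.6, 11.3 and 9.47 FPKM with atrazine and at 10.6, 3.69 and 8.51 in the controls. The nup98.L transcript had a mean of 19.3 FPKM, from 4 to 16 reads per library over 182 bases. Those of capn10.L, a calpain protease gene, and prlh.L, a gene for the prolactin-releasing hormone, had means of 7.05 and 0.645 FPKM, with overlapping groups.

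The RefSeq annotation of the later assembly v10.1 held the genes of 1336 of the 2577 transcripts. It classes those of 1015 as lncRNA, of 281 as protein coding, of 23 as pseudogenes, of 10 as transcribed pseudogenes and of 7 as other RNA. Detection was met by 38.0% of the first class, 50.2% of the second and 33.1% of the 1241 transcripts with no match. Of the 10 transcribed pseudogenes 9 were detected. Of the 50 most abundant transcripts, 27 were in the lncRNA class and 8 in the protein-coding class, and 13 had no match. The protein-coding class also holds tuba1c.L, prlh.L, LOC108708147, LOC108704092, LOC108718073 and LOC108719983, which are named in this text.

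The following transcripts with a v10.1 symbol were chosen after their values were seen. LOC108712897 and LOC108711409 are named selenow2.S and selenow2.L and LOC108698632 is named selenow1.L, for selenoprotein W, whose mRNA reads a UGA stop codon as selenocysteine. All 3 are classed in v10.1 as protein coding, and they were at 157, 113 and 110 FPKM on average. LOC108704025, named selenok.L after another selenoprotein and likewise classed as protein coding, was at 24.1 FPKM. LOC108712847, at 206 FPKM, is named oaz1.L, for ornithine decarboxylase antizyme, which is made by a ribosomal frameshift, and is classed there as a transcribed pseudogene. All 3 selenow transcripts were highest in control replicate 2: selenow2.S was at 146, 101 and 132 FPKM with atrazine and at 146, 233 and 183 in the controls. The groups of selenow1.L did not overlap, at 93.4 to 98.3 FPKM against 111 to 140.

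The selenow2 transcripts were also found as an L and S pair, each beside a usp8 row, on 3L and 3S at gaps of 2051 and 1216 bases. Altogether 26 pairs of intergenic lncRNAs had as nearest neighbour the L and the S copy of the same named mRNA in the same arrangement. The mean FPKM of the pairs had a Spearman correlation of 0.728 over 26 pairs, of 0.536 over the 11 pairs with both transcripts detected and of 0.648 over the 10 pairs with both within 10 kb. The L transcript was the higher in 14 of 26. These pairs share libraries and rest on position, not on sequence, so they need not be copies of 1 gene. Some differed widely in level. Beside eif1b the L transcript (prlh.L, 2112 bases) was at 0.645 FPKM and the S transcript (LOC108719993, 452 bases) at 70.1. Beside senp5 they were at 0.0953 (LOC108716354) and 38.9 (LOC108718073).

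Between atrazine and control, no intergenic lncRNA passed the test. Of 1432 lncRNA transcripts tested with limma, 0 were called at an adjusted p of 0.05 (0%), with adjusted p-values from 0.240 upward. An unadjusted p under 0.05 was found for 73 of the 965 detected intergenic lncRNAs (7.56%), against 6.77% of all lncRNAs tested. Of the 73, 36 were higher (3.73% of the 965, against 3.42% of all tested) and 37 lower (3.83%, against 3.35%). Groups did not overlap for 136 (14.1%, against 12.6%). Of the 136, 82 were higher with atrazine (8.5% of the 965, against 7.75% of all tested) and 54 lower (5.6%, against 4.82%). The 82 include the 7 detected only in the atrazine libraries, and the 54 include the 10 detected only in the controls. For those the detection rule itself fixed the lack of overlap. A change over 2-fold on the log2(FPKM + 1) scale was found for 31 (3.21%, against 2.79%). The shares are near those of the whole table, but these 965 transcripts are themselves most of the 1432 tested. The median log2 fold change was 0.04 over the intergenic lncRNAs (-0.01 with median-of-ratios scaling) and 0.05 over all lncRNAs tested. The count of 73 was 38 without control replicate 2 and 43 without control replicate 3. The shares over all lncRNAs in those fits are not given, so nothing is read from these counts. Without control replicate 1, 1 transcript was called, LOC108706402, which rested on 0 to 2 reads per library.

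**Figure D3:**
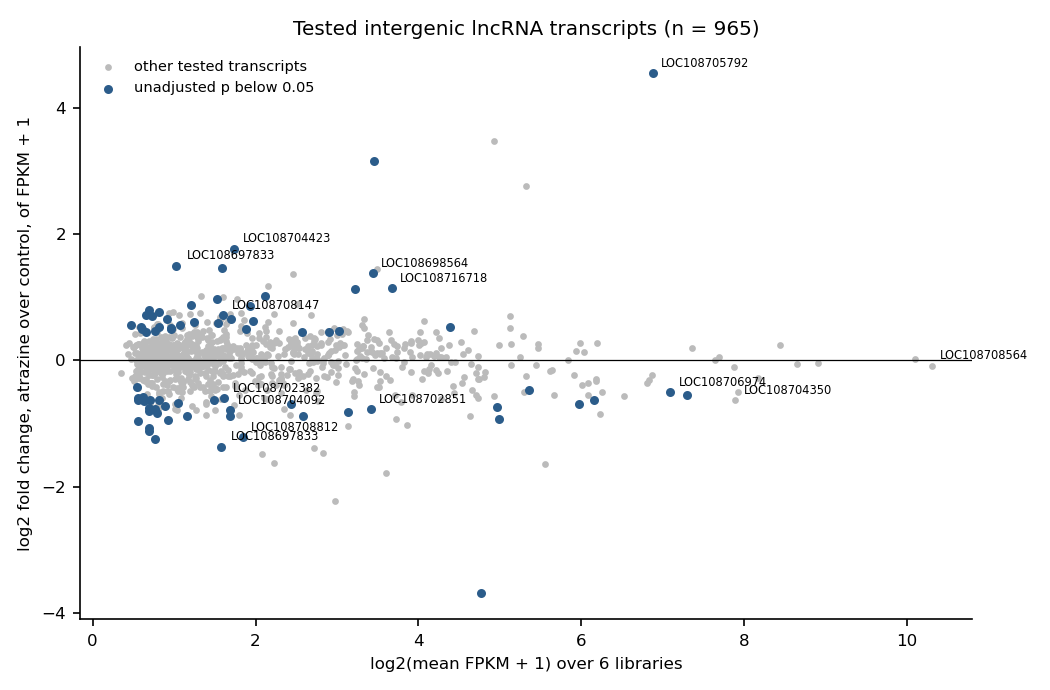
Log2 fold change of FPKM + 1, atrazine over control (y), against log2 of the mean FPKM + 1 over 6 libraries (x) for 965 detected intergenic lncRNAs. Blue points have an unadjusted p below 0.05, and none has an adjusted p below 0.05. Abundant transcripts such as LOC108708564 lie close to 0, and LOC108705792 lies highest.

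Of the 6 transcripts with the smallest p that were higher with atrazine, LOC108716718 (377 bases, 5L, bases 53775134 to 53780400) led. It was at 14.5, 17.2 and 17.8 FPKM with atrazine and at 6.14, 5.90 and 8.92 in the controls. Its group means were 16.5 ± 1.73 and 6.99 ± 1.68 FPKM (SD, n = 3 each), its log2 fold change was 1.15 ± 0.22 and its adjusted p was 0.338. It lies 207399 bases from the nearest mRNA row. LOC108708147 (1220 bases, 2L) was at 3.17, 2.52 and 2.62 FPKM with atrazine and at 1.25, 1.16 and 1.49 in the controls (log2 fold change 0.71 ± 0.20, adjusted p = 0.612). Neither passed, and the lack of overlap in both was required for the list.

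LOC108705792 had the largest fold change of the detected intergenic lncRNAs. It was at 27.5, 79.4 and 579 FPKM in atrazine replicates 1, 2 and 3 and at 3.10, 1.51 and 9.09 in the controls. Every atrazine library was above every control, which was again required for the list. The log2 fold change was 4.55 ± 1.08 (adjusted p = 0.505), and 3.35 (adjusted p = 0.532) without atrazine replicate 3. The transcript is 908 bases long on an unplaced sequence, at bases 1835 to 2801, and the only mRNA row there, ccdc50.L_2, lies 1166 bases away in divergent arrangement. That row, a second one under the symbol of a coiled-coil protein gene, was at 258, 1076 and 8429 FPKM with atrazine and at 42.0, 59.1 and 147 in the controls (log2 fold change 4.20 ± 1.07, adjusted p = 0.693). Leaving out atrazine replicate 3 gave this row 2.87, and leaving out atrazine replicate 1 gave 5.38. The ccdc50.L row on 5L did not share the pattern, at 13.7 to 15.0 FPKM with atrazine and 10.8 to 14.2 in the controls. Both rows of the unplaced sequence were therefore ordered alike within the atrazine group, highest in replicate 3, the shallowest library.

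**Figure D4:**
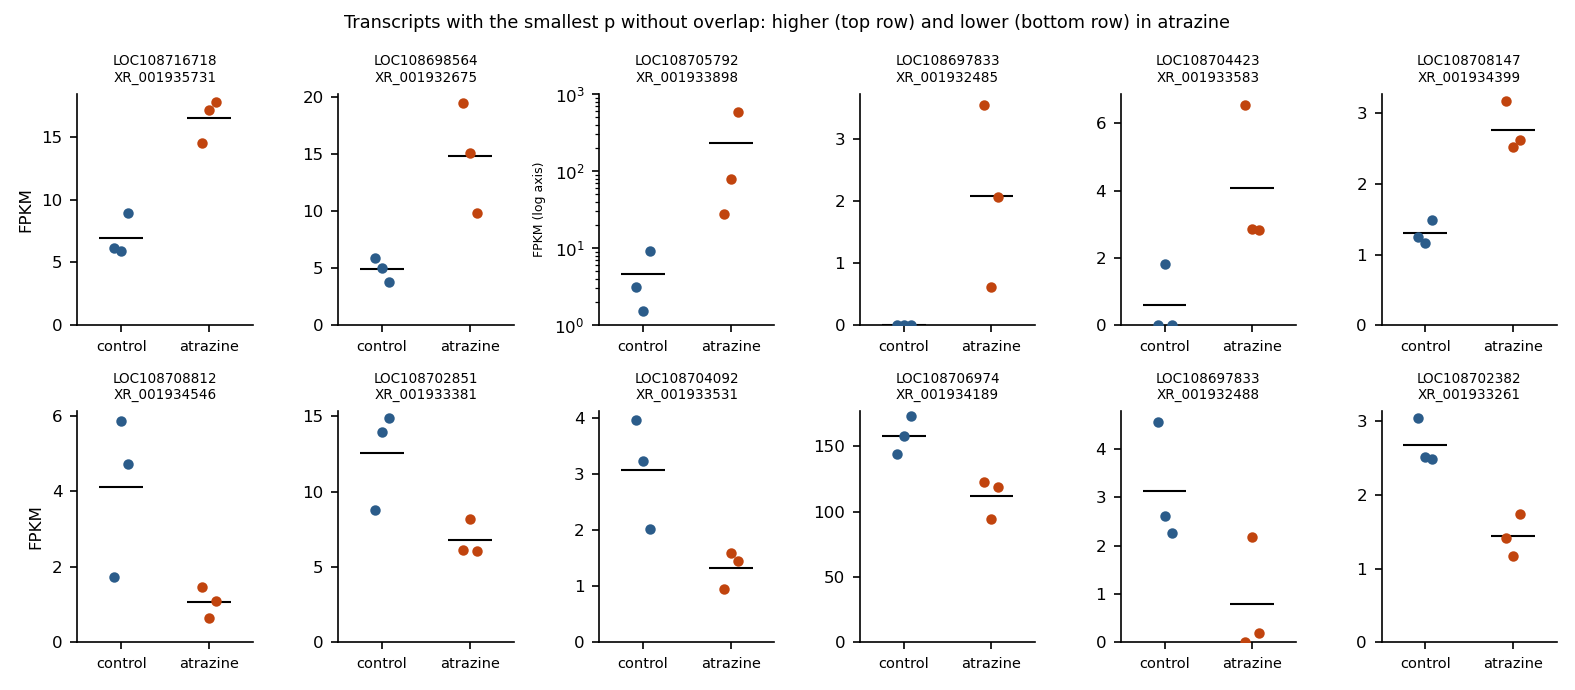
FPKM (y) in 3 control and 3 atrazine libraries for the 6 intergenic lncRNAs higher (top) and the 6 lower (bottom) with atrazine that had the smallest p without overlap and a mean of at least 1 FPKM. Points are libraries and lines are group means, and only LOC108705792 is on a log axis. None passed at an adjusted p of 0.05.

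Others among the 6 were transcripts of genes with several isoforms, whose reads were whole when summed over the gene but often not for a single transcript. XR_001932675 of LOC108698564 (550 bases, 8L) was at 19.5, 15.1 and 9.79 FPKM with atrazine and at 5.93, 5.04 and 3.80 in the controls (log2 fold change 1.38 ± 0.29, adjusted p = 0.379). Another transcript of the gene, XR_001932670 (582 bases), was at 35.1, 35.8 and 29.2 FPKM with atrazine and at 43.1, 45.2 and 50.5 in the controls (log2 fold change -0.46 ± 0.17, adjusted p = 0.689). The first transcript thus made up 35.7%, 29.7% and 25.1% of the gene's summed FPKM with atrazine and 6.78% to 12.1% in the controls. Lack of overlap in its FPKM was required for the list, so these shares are no separate evidence of a change. The sum over the gene was 54.5, 51.0 and 39.0 FPKM with atrazine and 49.0, 50.3 and 56.0 in the controls, and overlapped. The locus of the gene is written as that of the mRNA row LOC108698563 on the opposite strand, which was at 9.09 to 10.7 FPKM with atrazine and 9.93 to 11.3 in the controls.

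**Figure D5:**
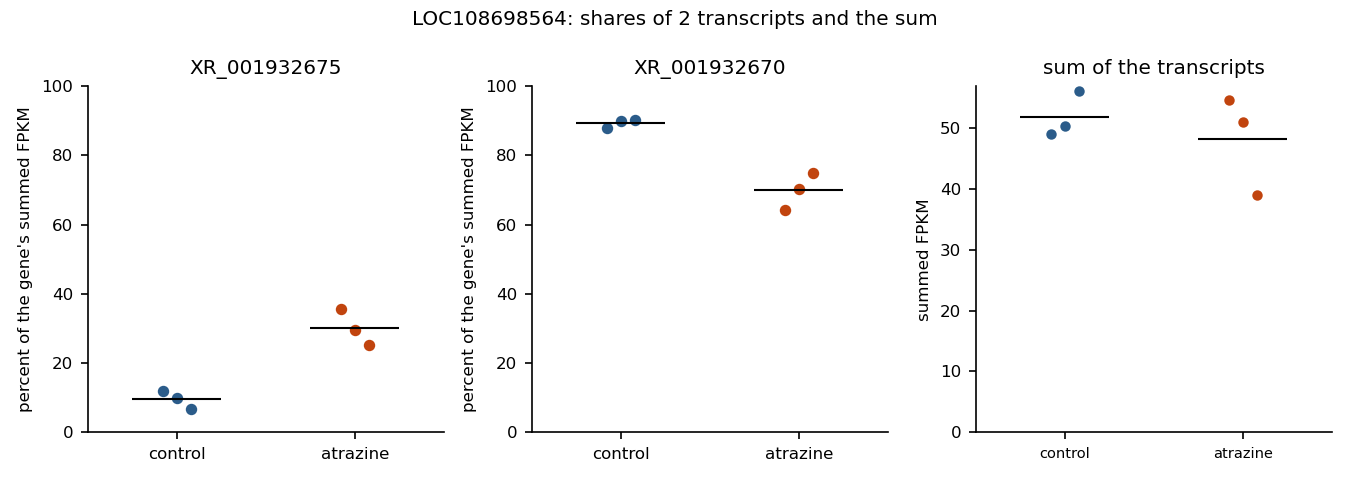
Percent of the summed FPKM of LOC108698564 held by XR_001932675 and by XR_001932670, and the summed FPKM, in 3 control and 3 atrazine libraries (points, with group means as lines). The shares do not overlap between groups, at 25.1% to 35.7% against 6.78% to 12.1% for XR_001932675, while the sums do. Lack of overlap in the FPKM of XR_001932675 was required for its listing.

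LOC108697833 (7S) stood on both lists. Its transcript XR_001932485 was at 3.55, 0.621 and 2.07 FPKM with atrazine, from 29.2, 5.4 and 8.7 estimated reads, and rested on 0 reads in each control. Its transcript XR_001932488 was at 0.00102, 2.19 and 0.197 FPKM with atrazine and at 4.55, 2.62 and 2.26 in the controls (log2 fold change -1.37 ± 0.47, adjusted p = 0.672). Summed over the gene, the values were 7.35, 9.47 and 5.96 FPKM with atrazine and 8.28, 4.85 and 5.49 in the controls, and the groups overlapped. LOC108704423 (unplaced) differed from both. Its transcript XR_001933583 was at 6.54, 2.87 and 2.82 FPKM with atrazine and at 0, 1.82 and 0 after rounding in the controls. The sum over LOC108704423, at 7.89, 5.07 and 4.20 against 1.19, 4.05 and 1.52, did not overlap. For the single transcripts named here the lack of overlap was required for the lists. XR_001932485 also met the detection rule only through the atrazine libraries.

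A transcript of LOC446970, which was picked out after its values were seen, had a larger fold change than these isoforms. The gene is named marchf7.L in v10.1, for a membrane-associated ubiquitin ligase. Its transcript XR_001933155 (2504 bases) was at 12.6, 0.00478 and 0.0735 FPKM with atrazine and at 5.70, 86.3 and 52.3 in the controls, so the groups overlapped (log2 fold change -3.68 ± 1.29, adjusted p = 0.672). Its transcript XR_001933154 (2557 bases) was at 63.5, 57.6 and 68.1 FPKM with atrazine and at 50.7, 75.9 and 46.5 in the controls. Its transcript XR_001933156 was at 6.09, 6.63 and 10.9 FPKM with atrazine and at 12.7, 8.57 and 6.06 in the controls. Of the libraries where the first was high, control replicate 2 had the highest value of XR_001933154. Control replicate 3 had the lowest values of both XR_001933154 and XR_001933156. No sum over the gene is given. Control replicate 1 was nearer to the atrazine libraries than to the other controls in the first transcript.

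Among the 6 transcripts lower with atrazine that were listed by the same rules, LOC108706974 (421 bases, 1S) was the most abundant. It was at 123, 94.2 and 119 FPKM with atrazine and at 144, 158 and 173 in the controls. Its log2 fold change was -0.50 ± 0.17 and its adjusted p was 0.672, over 227 to 654 reads per library. LOC108702851 (388 bases, 9_10S) was at 6.14, 8.15 and 6.05 FPKM with atrazine and at 8.74, 14.0 and 14.9 in the controls (log2 fold change -0.78 ± 0.25). In both the lack of overlap was again required for the list.

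LOC108704092 (803 bases, unplaced) is named slc7a10.S in v10.1, for an amino acid transporter. It was at 0.948, 1.60 and 1.45 FPKM with atrazine and at 3.98, 3.25 and 2.03 in the controls (log2 fold change -0.79 ± 0.26). LOC108702382 (548 bases, 9_10S) was at 1.41, 1.17 and 1.74 FPKM with atrazine and at 3.04, 2.52 and 2.49 in the controls (log2 fold change -0.60 ± 0.21). It rested on 5 to 20 reads per library. Both had an adjusted p of 0.672.

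LOC108708812 (762 bases, 2L) lies 2732 bases downstream of LOC108708811, an mRNA row for a protein like coiled-coil domain-containing protein 83, on the same strand. The lncRNA was at 1.46, 0.640 and 1.11 FPKM with atrazine and at 1.74, 5.86 and 4.72 in the controls. The mRNA was at 1.82, 0.713 and 0.305 FPKM with atrazine and at 1.36, 4.83 and 3.73 in the controls. In both rows control replicate 1 was close to the atrazine libraries. Their log2 fold changes were -1.22 ± 0.38 (adjusted p = 0.670) and -1.12 ± 0.37 (adjusted p = 0.693).

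The smallest p-values of all came from transcripts near the limit of counting. LOC108709086, LOC108716313 and LOC108703115 were at 0 in the 3 atrazine libraries and at 1.07 to 1.89, 0.800 to 1.79 and 0.782 to 1.10 FPKM in the controls. Those control values stood for 1 to 3 reads per library, so no fold is given. Their adjusted p-values were 0.240, 0.314 and 0.240. These transcripts met the detection rule only through the control libraries, where they were high, so their p-values are no evidence of a change. Some short detected transcripts also rested on a few reads. LOC108696756 (114 bases) ran from 0 to 130 FPKM on 0 to 3 reads. LOC108706275 (165 bases, named here after its values were seen) ran from 0 to 27.7 FPKM on 0 to 7 reads.

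At the other end, the longest detected transcripts were steady or varied within groups. LOC108719983 (10347 bases, 6S), named col6a5.S in v10.1 after a collagen VI chain, was at 0.654 to 0.784 FPKM with atrazine and 0.560 to 0.821 in the controls. LOC414515 (9452 bases, 6S), named dsp.S after the desmosomal protein desmoplakin, was at 31.6, 11.3 and 12.6 FPKM with atrazine and at 17.5, 12.0 and 31.2 in the controls. Their groups overlapped.

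The median gap from an intergenic lncRNA to the nearest mRNA row was 12250 bases over the 2304 transcripts with a row on the same sequence and no overlap of loci, and 243 had no such row. Detection was met by 42.0% of the 688 within 5 kb, 44.6% of the 350 at 5 to 10 kb, 35.2% of the 753 at 10 to 50 kb and 25.1% of the 513 beyond. It was met by 48.1% of those on sequences with no mRNA row. Levels of detected lncRNAs and their nearest mRNAs were weakly related across pairs, which share libraries and locus: Spearman's rho was 0.179 over 278 pairs within 5 kb, 0.053 over 151 at 5 to 10 kb and -0.097 over 261 at 10 to 50 kb.

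By arrangement, detection within 10 kb was met by 45.8% of the 225 convergent transcripts, 45.5% of the 308 downstream on the same strand, 40.4% of the 240 divergent ones and 39.6% of the 265 upstream on the same strand.

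The mRNA rows within 10 kb of a detected intergenic lncRNA were not called between atrazine and control either. Of 393 such rows 330 were tested and 0 were called, as were 0 of all 23824 mRNA rows tested (0%). At an unadjusted p under 0.05 there were 19 (5.76%), against 5.92% of all mRNA rows. Of the 19, 11 were higher and 8 lower, while 3.32% of all mRNA rows were higher and 2.59% lower at that p. The median log2 fold change of the tested near rows was 0.05, against 0.04 over all mRNA rows. The count of 19 was 29 without atrazine replicate 1, 8 without atrazine replicate 2 and 56 without control replicate 1, with 0 called in each case. The shares over all mRNA rows in those fits are not given, so the counts are not read as particular to rows near lncRNAs.

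After ccdc50.L_2, the rows with the smallest p among those higher with atrazine were LOC108709556, LOC108718697 and LOC398937. LOC108709556 is named sfpq.S in v10.1, for a nuclear RNA-binding splicing factor, and was at 58.5, 59.7 and 60.9 FPKM with atrazine and at 50.6, 39.0 and 42.4 in the controls. The lncRNA 4025 bases away, LOC108709557, was at 0.290 to 0.964 FPKM with atrazine and 0.367 to 0.849 in the controls, and overlapped. LOC108718697, a row for a protein like MEIOC, which in mouse is needed for meiotic prophase, was at 7.18, 12.5 and 11.4 FPKM with atrazine and at 5.56, 6.89 and 6.26 in the controls. The lncRNA downstream of it, LOC108718695, was at 3.52, 9.74 and 6.02 FPKM with atrazine and at 3.98, 3.18 and 1.59 in the controls, again highest in atrazine replicate 2. LOC398937, named stau1.S after the double-stranded RNA-binding protein Staufen, had log2 fold change 0.62 ± 0.20, and the leading transcript of the lncRNA gene beside it, XR_001933312 of LOC108702579, had 0.47 ± 0.23. None passed, with an adjusted p of 0.693 for each of the 3 mRNA rows and 0.770 for XR_001933312.

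Among near rows lower with atrazine, sp4-c led, followed by LOC108695709, LOC108697978 and LOC108708811. LOC108695709, a row for a protein kinase C-like protein, was at 0.838, 0.993 and 0.412 FPKM with atrazine and at 2.16, 2.25 and 2.05 in the controls (log2 fold change -0.87 ± 0.17). LOC108697978, a row for a protein like serine/threonine-protein kinase 4, was at 0.667, 0.379 and 0.263 FPKM with atrazine and at 1.15, 2.01 and 2.87 in the controls (log2 fold change -1.04 ± 0.23). The lncRNAs beside them did not separate the groups: LOC108696953 was at 0 to 0.970 FPKM with atrazine and 0 to 1.28 in the controls, and LOC108697979 at 0 to 11.1 and 1.83 to 4.03. The 3 rows other than sp4-c had an adjusted p of 0.693.

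The lncRNAs closest to an mRNA row showed no common pattern. LOC108703380 (4246 bases, unplaced) adjoins the locus of ncoa4.S in convergent arrangement, so that their 3′ ends meet. It was at 1.11, 0.973 and 0.899 FPKM with atrazine and at 0.656, 0.722 and 0.865 in the controls, with no overlap but a log2 fold change of only 0.19 ± 0.17. The ncoa4.S row, for a coactivator of nuclear receptors that also carries ferritin to autophagosomes, was at 18.2 to 21.7 and 17.4 to 19.0 FPKM. LOC108712847 (oaz1.L) adjoins LOC108712838 in divergent arrangement and was at 181 to 224 FPKM with atrazine and 175 to 216 in the controls. LOC108702618, LOC108698213, LOC108699965 and LOC108718881, at gaps of 7 to 17 bases, had means of 1.71 to 5.70 FPKM and overlapping groups.

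Libraries differed within groups in the abundant intergenic lncRNAs. Of the 148 detected ones with a mean of at least 10 FPKM, 23 (15.5%) were highest in control replicate 2 and lowest in atrazine replicate 2, and 11 (7.43%) were the reverse. Over all 965 the counts were 56 (5.80%) and 55 (5.70%), and over mRNA rows tested the shares were 8.83% and 14.1%. LOC108704372, LOC108699856, LOC108704350, LOC108712897 and LOC108698632 were among the 23. Summed FPKM of the spermatid and sperm markers was highest in control replicate 2 and lowest in atrazine replicate 2, at 1965 and 654, and at 757 and 319 without sp4-c. The red blood cell markers were at 135 to 214 with atrazine and 235 to 686 in the controls, highest in control replicate 2. Of their 5 rows 4 were lower with atrazine and 0 higher. Leydig cell markers, with 3 of 5 genes found, were at 112 to 225 with atrazine and 242 to 258 in the controls. The 1 meiosis row found, from 4 genes listed, was also lower, at 96.2 to 117 against 120 to 129. It does not stand for meiotic genes as a class. LOC108707468, a row for a protein like synaptonemal complex protein 1, overlapped, at 48.0 to 65.6 FPKM against 49.7 to 70.4. The MEIOC-like row LOC108718697 was higher, at 7.18 to 12.5 FPKM against 5.56 to 6.89. Groups overlapped for spermatogonia and germ line markers (869 to 991 against 799 to 980) and Sertoli cell markers (114 to 136 against 113 to 127). They also overlapped for the muscle, leukocyte, kidney tubule, and fat body and liver lists. The part of these markers in the lncRNA values was not tested.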

How the data were processed

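Testis RNA was measured in 6 libraries, 3 exposed to atrazine and 3 controls, grouped by their titles. Per the file headers, the authors deposited FPKM for 31598 mRNA rows and 4652 lncRNA rows, and a signal headed as counts that is not whole. The submitters' processing notes name CASAVA 1.8, Bowtie2 and HISAT2 without saying what each did. Not given in the sources used here are the quantifier, its strand setting, the annotation release and the genome build. lncRNA rows repeat a transcript once per associated gene, and repeats were dropped, leaving 3559. Of the intergenic ones, 2 are not reported here. The deposited signal was, in 99.8% or more of mRNA rows and of lncRNAs with 1 transcript per gene (under 200 reads, tolerance 0.02), a whole multiple of 1 step per library, from which reads were estimated. Of genes with several transcripts only 50.8% to 60.8% of values were whole, while their sums over the gene were whole in 100% of 252 to 280 genes per library. No count test was run on the transcripts. Coordinates were taken from the deposited loci and count from 1.

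Rows reaching 0.5 FPKM in 3 or more libraries were tested with limma 3.58.1 (R 4.3.3; lmFit, eBayes with trend) on log2(FPKM + 1), which understates changes of low rows. Tests were two-sided, with group as the only term and Benjamini-Hochberg adjustment within the lncRNA or the mRNA table at 0.05. Alternatives were other pseudocounts, filters, scaling, the deposited signal, robust variances, a replicate block and leaving out each library. Scripts were tested on simulated data. Gaps were measured between deposited loci to the nearest mRNA row, and 70 transcripts with several rows equally near were left out of the 10 kb class. For 30 transcripts the locus was written as that of an mRNA row. v10.1 served for names and classes only. Named transcripts were those with the 6 smallest p in each direction without overlap and a mean of at least 1 FPKM, the 8 highest, those with a symbol (up to 6), those at 0 in 1 group, the 6 smallest gaps, the 2 longest and the 2 shortest, with near mRNAs (up to 4 per direction). The members and lists were chosen with earlier results of these data known. Read numbers give counting error only, since PCR copies cannot be told from molecules.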

Additional observations from a re-analysis of the deposited data

How the results depend on the processing

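In the fits tried, 0 intergenic lncRNAs and 0 near mRNA rows were called, except that leaving out 1 library at a time gave 0 to 1 called lncRNAs. The exception was LOC108706402 without control replicate 1 (log2 fold change 5.37, adjusted p = 0.00452), listed at 117 bases. Intergenic lncRNAs at an unadjusted p under 0.05 numbered 73, and 126 with no filter on low values, 43 with a mean of at least 1 FPKM, 46 with a mean of at least 10 estimated reads (chosen after seeing the data) and 38 to 76 when a library was left out. For near mRNA rows the count was 19, and 8 to 56 when a library was left out, with 8 without atrazine replicate 2 and 56 without control replicate 1. The filters change how many rows are tested by construction, and for left-out libraries the cause was not tested. The shares over all lncRNAs or all mRNA rows in these fits are not given, so nothing is read from these counts. Pseudocounts, scaling, the deposited signal, robust variances, summed transcripts and repeated rows kept (the last 2 chosen after seeing the data) left the counts within 1.5 times. The share of near mRNA rows at an unadjusted p under 0.05 was 5.76%, and 6.39% of 219 rows within 5 kb and 6.26% of 511 within 50 kb.

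The replicate block left 49 intergenic lncRNAs and 20 near mRNA rows at an unadjusted p under 0.05 and called none. Shares over all rows in that fit are not given either. Same-numbered libraries did not deviate together (r = -0.158, -0.200 and -0.070 over tested lncRNAs). With 3 libraries per group this cannot exclude that the numbers pair the samples, and the labels name no pairing.

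The median level of 0.246 FPKM became 0.179 with medians over the libraries and 1.82 among detected transcripts only. Detected transcripts numbered 965, 1542 at 0.1 FPKM, 699 at 1 FPKM and 899 to 905 when a library was left out. Of 31 fold changes checked, 30 kept their direction in the alternative fits. LOC108704372 ran from -0.60 to 0.24 when a library was left out, the latter without atrazine replicate 2. Below about 10 reads per library, depth limits every value given.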
